A study of Mus musculus with 31 samples.

Results

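Butyrate and propionate were compared directly in the colon of mice on a low-fat diet (LFD), using the 4 arrays titled butyrate LFD and the 4 titled propionate LFD, 8 of the 31 arrays of the study. All mice were male C57Bl/6J, 13 weeks old at sampling and housed individually, and both groups ate a semi-synthetic diet with 10% of its energy from fat, with palm oil in place of lard. Butyrate mice received 80 µL of saline with 100 mM sodium butyrate into the rectum on 6 consecutive days under mild sedation, and propionate mice received the same volume with 100 mM sodium propionate, at pH 6.5 and isotonic in both. The lining of the colon was scraped off 4 h after the last infusion, and its total RNA was hybridised to 1 array per sample. The study also had saline and acetate infusions, and a high-fat diet (HFD) with 45% of energy from fat. Dose, volume and time were thus matched, and 1 pair of compounds was compared. The labels count 6 mice per infusion group and do not tie an array to a mouse, so the p-values below refer to arrays. They set a difference against the spread between arrays within groups, pooled over all 31 arrays.

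Short-chain fatty acids are made by gut bacteria from dietary fibre. Butyrate, which has the longer carbon chain, is the main fuel of colonocytes, the absorptive cells of the colon, and inhibits histone deacetylases, enzymes that remove acetyl groups from histones. Propionate is taken up largely by the liver, where it enters the citric acid cycle through propionyl-CoA, and both acids are ligands of the receptors Ffar2 and Ffar3.

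Of 35556 probe sets, 21218 carried 1 gene symbol, and 12795 of the 18820 genes these named were bright enough to test. Levels are log2 values, so a difference of 1 is a doubling, and levels of different genes are not compared. As for the tissue label, the 12 surface colonocyte genes averaged 11.48 ± 0.142 in butyrate mice and 11.54 ± 0.0731 in propionate mice (SD, n = 4 each), above the brightness limit of 4.32, and no other tissue was analysed for contrast. Levels correlated across genes at 0.981 to 0.992 among butyrate arrays, 0.988 to 0.994 among propionate arrays and 0.983 to 0.995 between them. Among the arrays compared, butyrate 2 and propionate 2 stood apart in marker genes of neighbouring tissue. Those values are given below beside the results they touch. In scrapings, fewer cells of a type and less RNA per cell cannot be told apart.

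No gene passed an adjusted p of 0.05 between butyrate and propionate (limma, Benjamini-Hochberg over 12795 genes, smallest adjusted p 0.999). An unadjusted p under 0.05 was reached by 463 genes, or 3.62%, where chance alone gives 639.8. Of these, 176 were higher under butyrate (1.38%) and 287 lower (2.24%). That split turned to 409 higher and 139 lower with each array centred on its median, and to 258 and 202 after quantile normalisation once more, so its direction rests on the scale. The count of 463 was 737 without array butyrate 1. The 4 butyrate arrays lay wholly above the 4 propionate arrays for 151 genes (1.18%) and wholly below for 211 (1.65%), together 2.83% of genes. The 95% interval of the difference lay within 0.5 of 0 on the log2 scale for 90.0% of genes and within 1 for 98.9%. The median of all genes was -0.01, with 55.0% of genes below 0 and 45.0% above, and the SD within a group was larger under butyrate for 65.6% of genes, with medians of 0.13 for butyrate and 0.103 for propionate.

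The sequences that follow are the 250 bases before the start sites of 3 genes that the results below return to: Mt2, the gene furthest above 0, Ciart, the clock gene furthest above 0, and Hmgcs1, an early enzyme of cholesterol synthesis. They come from RefSeq, build GRCm38.p6, on the strand of the gene. Ciart lies at chr3:95882229-95882478 (minus strand), Mt2 at chr8:94172368-94172617 (plus strand) and Hmgcs1 at chr13:119690101-119690350 (plus strand). Capitals mark, on either strand, the E-box CACGTG that clock factors bind in Ciart, the metal response element core TGCGCNC or TGCACNC in Mt2, and the sterol regulatory element TCACNCCAC in Hmgcs1.
Ciart: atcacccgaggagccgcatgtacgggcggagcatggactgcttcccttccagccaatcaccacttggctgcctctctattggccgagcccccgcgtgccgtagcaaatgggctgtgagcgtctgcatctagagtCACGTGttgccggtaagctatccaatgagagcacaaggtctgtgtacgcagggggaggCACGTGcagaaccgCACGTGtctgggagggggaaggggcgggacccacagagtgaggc
Mt2: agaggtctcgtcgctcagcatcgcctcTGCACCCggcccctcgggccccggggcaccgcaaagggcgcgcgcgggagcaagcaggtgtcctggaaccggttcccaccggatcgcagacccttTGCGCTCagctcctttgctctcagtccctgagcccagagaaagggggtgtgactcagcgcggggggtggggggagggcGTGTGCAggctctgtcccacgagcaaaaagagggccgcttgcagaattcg
Hmgcs1: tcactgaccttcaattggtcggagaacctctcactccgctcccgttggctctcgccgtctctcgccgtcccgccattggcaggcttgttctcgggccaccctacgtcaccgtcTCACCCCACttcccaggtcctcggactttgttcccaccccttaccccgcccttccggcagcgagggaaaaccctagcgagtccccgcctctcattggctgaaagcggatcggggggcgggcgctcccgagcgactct
The Ciart promoter held the E-box at -116, -58 and -44 from the start site, and 0.0609% of 32851 mouse promoters of this length held it at least 3 times. The Mt2 promoter held the metal response element core at -223, -128 and -50, and 1.26% of promoters held it at least 3 times. Hmgcs1 held 1 sterol regulatory element at -137, as did 1.05% of promoters at least once. These are matches of letters only, and no binding was measured.

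**Figure D1:**
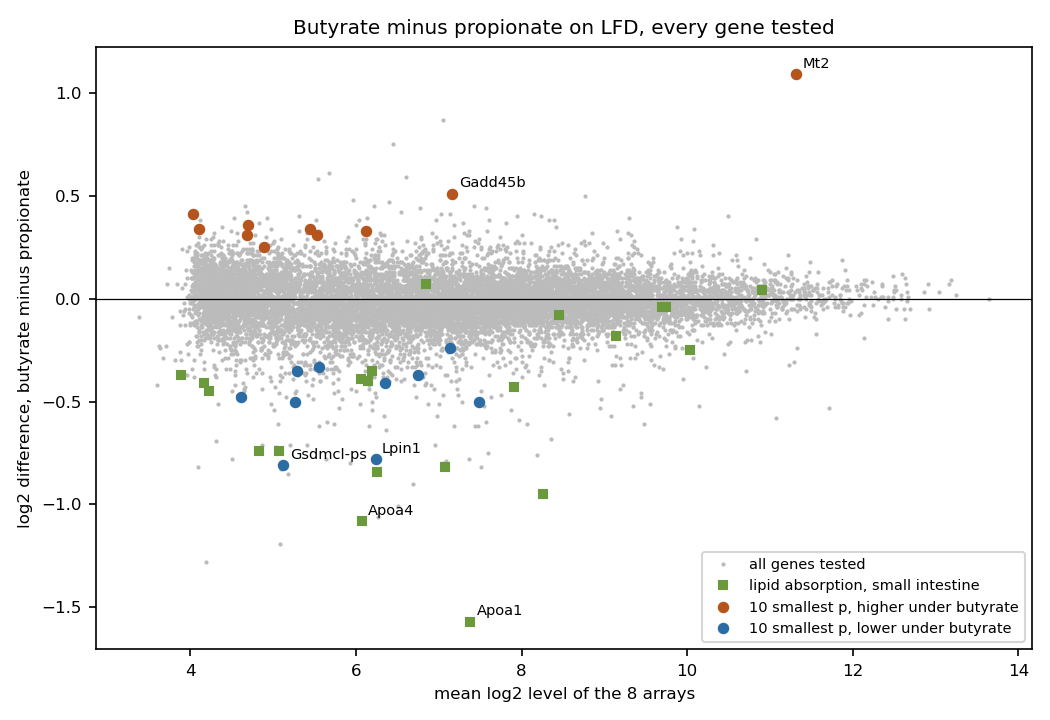
Log2 difference of butyrate minus propionate on LFD (y axis) against the mean log2 level of the 8 arrays (x axis) for the 12795 genes tested. Most genes lie near 0; Mt2 stands highest at 1.09 and Apoa1 lowest at -1.57, among other green squares that mark genes of lipid absorption in the small intestine.

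Mt2 encodes a metallothionein, a small protein that binds zinc and copper. It stood at 11.12, 12.31, 11.88 and 12.12 on the butyrate arrays, against 10.68, 10.35, 11.23 and 10.82 on the propionate arrays. All butyrate arrays but 1 were above all propionate arrays, and butyrate 1 lay just below propionate 3. The difference was 1.09 ± 0.3404 (SE), or 2.12-fold, with an unadjusted p of 0.00348 in limma that did not survive adjustment. Saline mice averaged 11.50, so that butyrate lay 0.35 ± 0.3404 above saline and propionate -0.73 ± 0.3404 from it. Mt1, its neighbour in function, had a difference of 0.40 ± 0.2049 (unadjusted p 0.0618).

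Gadd45b, a stress-induced gene that acts in growth arrest and DNA demethylation, stood at 7.43, 7.64, 7.51 and 7.08 under butyrate, against 6.97, 6.84, 6.94 and 6.86 under propionate. The groups did not overlap, and the propionate arrays lay close together. The difference was 0.51 ± 0.1563 (unadjusted p 0.00293 in limma). It was the member with the smallest p among 15 genes known to respond to inhibition of histone deacetylases, whose median was 0.00 with 7 above 0 and 8 below.

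The other 8 of the 10 genes with the smallest p above 0 were Zfp593, Rasl10b, Amer2, Spag8, Msgn1, Rbis, Panx2 and L3mbtl1, with differences between 0.25 and 0.41. Zfp593, a zinc finger protein gene, had the smallest p of them (0.000442 in limma) at 6.12, 6.50, 6.13 and 6.39 under butyrate, against 5.91, 6.01, 5.89 and 6.02 under propionate. Every butyrate array was higher than every propionate array. Amer2, whose product acts in Wnt signalling, was nearly constant under butyrate at 5.0, 5.04, 5.04 and 5.0, against 4.77, 4.78, 4.64 and 4.90 under propionate. Panx2, which encodes a channel protein of the pannexin family, differed by 0.31 ± 0.0948, also without overlap. Rasl10b and Spag8 lay near the brightness limit of 4.32, with means of 4.24 and 4.28 under butyrate, against 3.82 and 3.94 under propionate. In all, the groups did not overlap for 8 of these 10 genes, a number that the choice by p largely sets.

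The gene with the smallest p of all was Gsdmcl-ps, listed as a pseudogene of the gasdermin C family, whose members form membrane pores. It stood at 5.09, 4.63, 4.10 and 5.06 under butyrate, against 5.81, 5.88, 5.17 and 5.26 under propionate. The groups did not overlap, with butyrate 3 the lowest array. The difference was -0.81 ± 0.1892, or 57.1% of the propionate level (unadjusted p 0.0002 in limma). A near relative that codes for protein, Gsdmc2, had a difference of -0.31 ± 0.1612 (unadjusted p 0.0617), and probes of such close copies may share signal.

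Lpin1 encodes lipin, a phosphatase that makes diacylglycerol for triglyceride synthesis. Its levels were 6.48, 5.72, 5.09 and 6.09 under butyrate, against 6.53, 6.57, 6.67 and 6.74 under propionate. The propionate arrays were tightly grouped, and the butyrate arrays spread widely below them, with butyrate 1 nearly level with propionate 1. The difference was -0.78 ± 0.2097 (unadjusted p 0.000863). Saline mice lay between the acids at 6.24.

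Among the other genes below 0, Tnfsf13b, the cytokine BAFF that keeps B cells alive, stood at 6.43, 6.70, 6.46 and 6.68 under butyrate, against 6.97, 6.94, 6.95 and 6.90 under propionate, without overlap. Bcl6, a transcriptional repressor that also directs germinal centre B cells, differed by -0.41 ± 0.1103, and butyrate 4 overlapped propionate 1. The 13 markers of B and plasma cells had a median of -0.19 beside them, with 11 below 0, where 55.0% of all genes were. The median of these markers ran from -0.44 without propionate 1 to 0.05 without propionate 4. Their mean level ran between 5.02 and 5.81 under butyrate and between 5.05 and 6.08 under propionate, and its part in these values was not tested.

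Fgfbp1, a carrier that releases fibroblast growth factors from the matrix, stood at 7.40, 7.28, 7.07 and 7.19 under butyrate, against 7.87, 7.70, 7.78 and 7.61 under propionate. The groups were separate and of like spread, and the difference was -0.50 ± 0.1337 (unadjusted p 0.000801 in limma). Cars2, the mitochondrial cysteinyl-tRNA synthetase, had the smallest difference of the 10 at -0.24 ± 0.0655, again without overlap. Heg1, a receptor that stabilises junctions of the endothelium, differed by -0.35 ± 0.0999, and butyrate 2 lay within the propionate range. Zfp951, Eid2b and Blm complete the 10, and Blm is described with the repair genes.

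**Figure D2:**
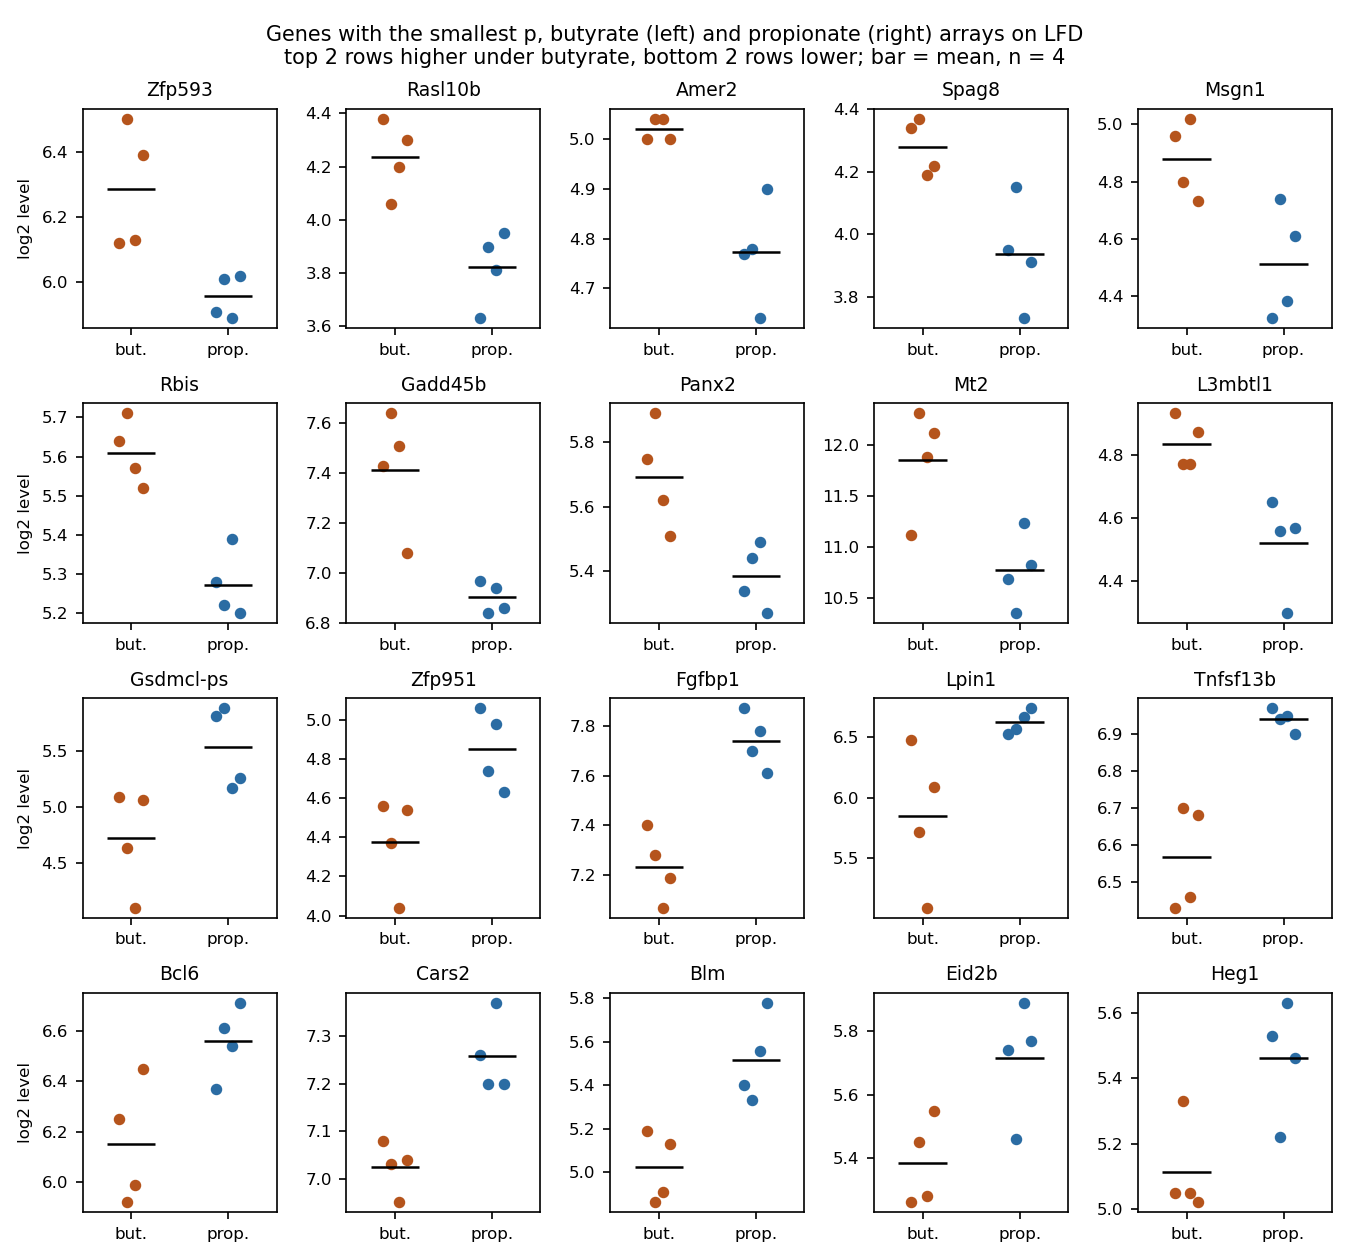
Log2 level on each of the 4 butyrate (left, orange) and 4 propionate (right, blue) LFD arrays for the 20 genes with the smallest p; bars are means, and the y axes differ between panels. The top 10 panels are genes higher under butyrate and the bottom 10 genes lower, and groups do not overlap in 8 and 7 panels.

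Against saline mice, propionate lay on the side away from butyrate for all 20 of these genes, and butyrate lay on its own side for 9 of the 10 higher and 10 of the 10 lower ones. The exception was Rbis, with butyrate at -0.09 ± 0.1023 and propionate at -0.43 ± 0.1023 from saline. Propionate was the acid farther from saline for 7 of the higher and 8 of the lower genes. Gsdmcl-ps, for example, was at -0.15 ± 0.1892 from saline under butyrate and 0.66 ± 0.1892 under propionate. Both differences share the 4 saline arrays, and the genes were picked for their distance between the acids, so these sides are a description.

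A difference beyond 0.5 was found for 75 genes (0.586%), 7 higher (0.0547%) and 68 lower (0.531%) under butyrate. Besides Mt2, Gadd45b and Ciart, the 7 were Phlda2, Slpi, Epha2 and Aldh1a3, named here after their values were seen. Phlda2, an imprinted gene that restrains growth of the placenta, stood at 6.85, 6.77, 6.96 and 6.72 under butyrate, against 6.10, 6.19, 6.11 and 5.90 under propionate. The groups lay far apart relative to their spread, yet on the standard error shared by all groups the difference was 0.75 ± 0.2748 (unadjusted p 0.0107 in limma), and saline mice varied widely around 6.46 ± 0.661. The 7 and 68 became 19 and 89 without array propionate 2, 24 and 81 without butyrate 2, and 22 and 132 without butyrate 1. They became 19 and 97 without butyrate 4, 13 and 71 without propionate 3, and 13 and 82 without propionate 4.

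Genes of the circadian clock held both directions. The clock is a feedback loop in which Arntl (Bmal1), with Clock or Npas2, switches on the Per, Cry and Nr1d genes, whose products repress it. Ciart, a repressor of Arntl and Clock, stood at 6.88, 7.76, 7.57 and 7.75 under butyrate, against 6.74, 6.90, 5.93 and 6.91 under propionate. Butyrate 1 overlapped the propionate arrays, and propionate 3 was far below the rest. The difference was 0.87 ± 0.287 (unadjusted p 0.00512), and saline mice averaged 7.37.

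Arntl ran the other way, with 7.64, 5.86, 6.57 and 6.70 under butyrate, against 7.6, 6.99, 7.83 and 7.51 under propionate. Again butyrate 1 lay among the propionate arrays. The difference was -0.79 ± 0.2846 (unadjusted p 0.00993). Nfil3, a repressor of D-box clock output genes, stood at 5.27, 5.43, 5.20 and 5.08 under butyrate, against 5.95, 5.93, 6.46 and 5.76 under propionate. Here the groups did not overlap, and the difference was -0.78 ± 0.2711 (unadjusted p 0.00756). Tef, an activator of the same D-box genes, differed by 0.33 ± 0.1538 (unadjusted p 0.0404).

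Of the 15 clock genes measured, 2 were higher and 2 lower at an unadjusted p under 0.05, beside 1.38% and 2.24% of all genes, and none passed adjustment. The loop's repressors Per1, Per2, Per3 and Nr1d2 lay between 0.26 and 0.32 above 0, while Npas2, Arntl's alternative partner, was at -0.35 and Cry1 at -0.29. The list's mean level was 7.49 ± 0.0491 in butyrate mice and 7.48 ± 0.0455 in propionate mice, since members on both sides of 0 offset each other. On HFD the difference of Ciart was 0.05 ± 0.287, that of Arntl 0.21 ± 0.2846 and that of Nfil3 -0.23 ± 0.2711. The E-box was found in 4 of the 13 list members with a promoter sequence, namely Ciart, Cry1, Per1 and Tef. A member counted if any promoter sequence listed for it held the motif. Of all promoters, counted singly rather than by gene, 6.02% held it, so these shares differ in their base. The hour at which each mouse was sampled is not given in the labels, and its part was not tested.

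**Figure D3:**
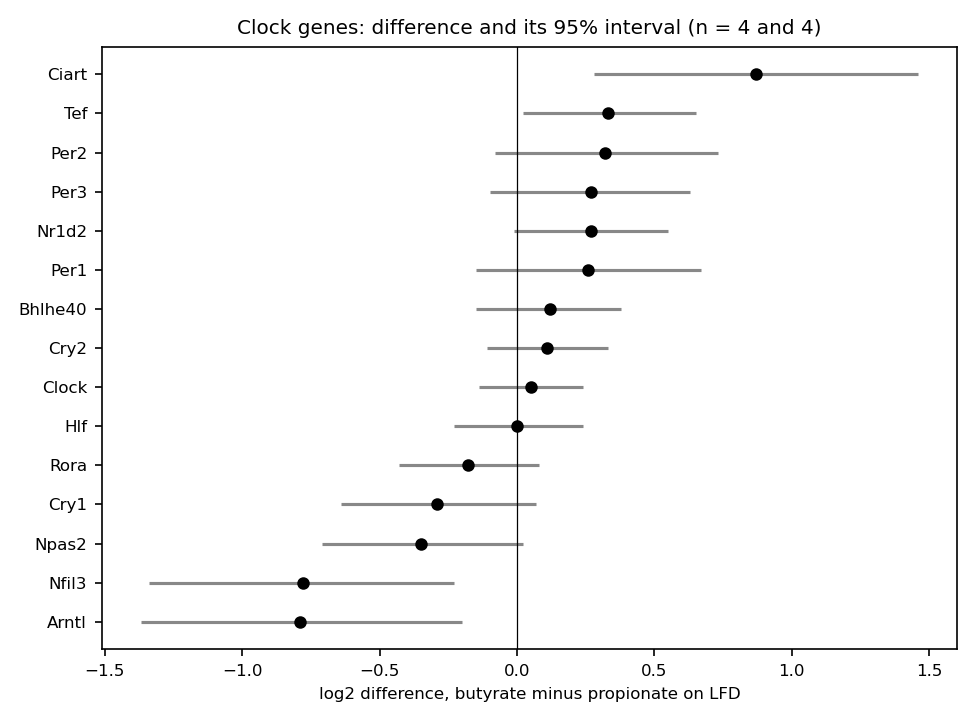
Log2 difference of butyrate minus propionate on LFD (x axis) with its 95% interval for 15 clock genes, ordered from highest to lowest. The intervals of Ciart and Tef lie above 0 and those of Nfil3 and Arntl below it.

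All 20 genes of cholesterol synthesis and uptake lay below 0, with a median of -0.33 beside -0.01 and 55.0% below 0 for all genes tested. Of the 20, 7 had an unadjusted p under 0.05, beside 2.24% of all genes in this direction. Hmgcs1, the synthase that makes the precursor of mevalonate, stood at 9.88, 8.82, 9.09 and 9.38 under butyrate, against 9.70, 9.90, 9.70 and 9.92 under propionate. Butyrate 1 lay among the propionate arrays, and butyrate 2 was lowest. The difference was -0.51 ± 0.238 (unadjusted p 0.0402 in limma).

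Insig1, which holds the sterol-sensing complex in the endoplasmic reticulum, had the smallest p of the list, with 9.73, 8.52, 9.01 and 9.45 under butyrate, against 9.69, 9.89, 9.57 and 9.99 under propionate. The same arrays were highest and lowest under butyrate, and the difference was -0.61 ± 0.188 (unadjusted p 0.00323). Lss, which closes the sterol rings, differed by -0.56 ± 0.261. Mvd, Pmvk, Dhcr7 and Hsd17b7, enzymes of mevalonate and late sterol steps, lay between -0.51 and -0.23. Srebf2, the transcription factor of the pathway, was at -0.09 ± 0.1087 (unadjusted p 0.417).

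The mean level of the 20 genes was 9.0, 8.27, 8.52 and 8.64 under butyrate, against 8.81, 8.97, 8.88 and 9.08 under propionate. Butyrate 1 overlapped propionate, so the list does not separate the groups. The median was -0.45 without butyrate 1 and -0.21 without butyrate 2, the widest moves on leaving out single arrays. Against saline, the median was -0.23 under butyrate and 0.15 under propionate. On HFD, where other mice were used, the median was 0.22, with 18 of 20 above 0. The sterol regulatory element was found in 1 of the 16 members with a promoter sequence, Hmgcs1.

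Fatty acid synthesis followed in the same direction, with 14 of 17 genes below 0, a median of -0.16 and 4 at an unadjusted p under 0.05, beside 55.0% and 2.24% of all genes. Acaca, the carboxylase that commits acetyl-CoA to fatty acids, stood at 8.65, 8.43, 8.32 and 8.32 under butyrate, against 8.75, 8.63, 8.80 and 8.71 under propionate. Only butyrate 1 reached into the propionate range, and the difference was -0.29 ± 0.1047 (unadjusted p 0.0093). Elovl5, an elongase of polyunsaturated fatty acids, differed by -0.30 ± 0.1189 without overlap, and Fads1, the delta-5 desaturase, by -0.52 ± 0.2269. Srebf1, the transcription factor that drives these enzymes, was at -0.35 ± 0.1463, whereas Fasn, the synthase itself, was at -0.16 ± 0.1517 (unadjusted p 0.297). The median on HFD was 0.19.

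Genes of DNA repair lay below 0 in 11 of 12 cases, with a median of -0.24 and 4 at an unadjusted p under 0.05, again beside 55.0% and 2.24% of all genes. Blm, a helicase that resolves recombination intermediates, stood at 5.19, 4.86, 4.91 and 5.13 under butyrate, against 5.40, 5.33, 5.56 and 5.78 under propionate. Its groups did not overlap, and the difference was -0.50 ± 0.1402 (unadjusted p 0.00145). Brca2, which acts in the repair of broken DNA by recombination, stood at 5.46, 4.89, 5.05 and 5.36 under butyrate, against 5.78, 5.38, 5.75 and 5.73 under propionate, with butyrate 1 above propionate 2. Exo1, an exonuclease of mismatch repair, and Lig1, the ligase of replication, differed by -0.46 ± 0.1733 and -0.29 ± 0.1149. These genes are also used by dividing cells: the 28 cell cycle genes had a median of -0.12, with 18 below 0, 15 after centring of the arrays, and 2 at an unadjusted p under 0.05. That median was -0.05 without butyrate 4 or without propionate 4. On HFD the repair genes had a median of 0.19 with 12 of 12 above 0. The cell cycle genes there had a median of 0.28 with 24 of 28 above 0. The 12 repair genes averaged 5.70 ± 0.136 in butyrate mice, 5.94 ± 0.121 in propionate mice and 5.77 in saline mice on LFD. Butyrate 1, at 5.87, lay level with propionate 1 and above propionate 2 at 5.83, so this list does not separate the groups.

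**Figure D4:**
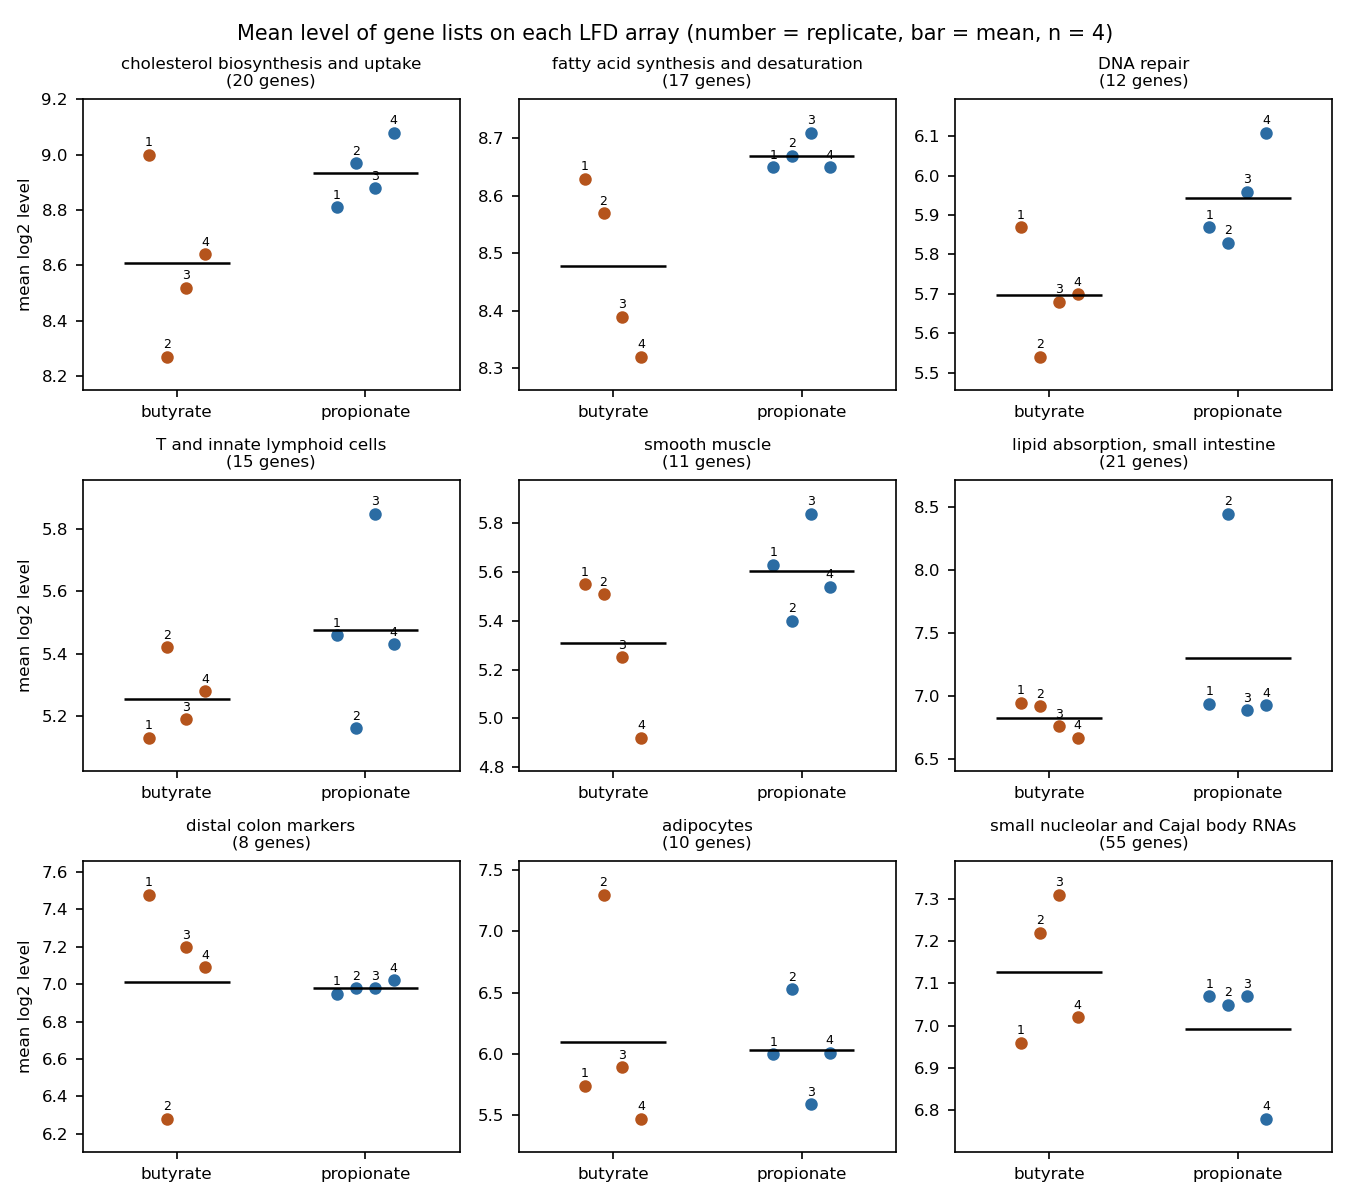
Mean log2 level of 9 gene lists on each butyrate (left, orange) and propionate (right, blue) LFD array, with the replicate number at each point, bars at the group means, and y axes that differ between panels. Propionate 2 stands alone in lipid absorption at 8.45, and butyrate 2 is lowest in distal colon markers at 6.28 and highest in adipocyte genes at 7.30.

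The most negative difference, that of Apoa1, rested on 1 array. Apoa1, an apolipoprotein of chylomicrons made in the small intestine, stood at 8.13, 6.58, 5.66 and 6.00 under butyrate, against 7.03, 11.39, 6.75 and 7.49 under propionate. Propionate 2 was far above the other 7 arrays, and the groups otherwise overlapped. The difference of -1.57 carried a standard error of 1.0488 (unadjusted p 0.145). Of 21 genes of lipid absorption, 19 lay below 0, beside 55.0% of all genes. Their median of -0.40 became -0.09 without propionate 2. The list averaged 8.45 on that array and between 6.67 and 6.95 on the other 7. Saline LFD 2 and 3 were also high, at 8.28 and 8.13, with the other saline and acetate LFD arrays between 6.8 and 7.05. Slc5a1, the glucose transporter of the brush border, was at -0.25 ± 0.0879. It was the 1 member of 21 at an unadjusted p under 0.05 in limma, beside 2.24% of all genes in this direction.

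Array butyrate 2 differed in 2 other ways. The 8 distal colon markers, mostly posterior Hox genes, averaged 6.28 on it and between 6.95 and 7.48 on the other 7 arrays. The 10 adipocyte genes averaged 7.30 on it, against 5.47 to 6.53 on the other 7. Adipoq, the adipose hormone adiponectin, was at 5.48 on it and between 3.56 and 4.47 on the other 7. Neither trait was particular to butyrate 2 on LFD. Saline LFD 1 and 2 averaged 7.14 and 6.87 in the adipocyte genes, with Adipoq at 5.54 and 5.24. The other saline and acetate LFD arrays averaged between 5.67 and 6.25. In the distal markers saline LFD 1 and acetate LFD 1 averaged 6.39 and 6.35, and the other saline and acetate LFD arrays between 6.61 and 7.42. Butyrate 2 was also the lowest array for the sterol and repair lists above. Without it their medians were -0.21 and -0.22.

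Of the markers of other cells, the 15 genes of T and innate lymphoid cells were all below 0, beside 55.0% of all genes. Their median was -0.22. Their mean was 5.13, 5.42, 5.19 and 5.28 under butyrate, against 5.46, 5.16, 5.85 and 5.43 under propionate. Propionate 3 was highest, and the groups overlapped. The median was -0.06 without propionate 3 and -0.35 without propionate 2. Gimap4, a GTPase of lymphocytes, had the smallest p at -0.44 ± 0.1669 (unadjusted p 0.0137 in limma). It was 1 of 2 members at an unadjusted p under 0.05, beside 2.24% of all genes in this direction. After centring each array on its median, 14 of the 15 were below 0.

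The 11 smooth muscle genes, which mark the muscle beneath the mucosa, had 10 members below 0, beside 55.0% of all genes. Their median was -0.32, and -0.17 without butyrate 4. An unadjusted p under 0.05 was reached by 1 member, beside 2.24% of all genes in this direction. Acta2, smooth muscle actin, stood at 7.39, 6.79, 6.87 and 5.36 under butyrate, against 7.46, 6.78, 7.94 and 7.05 under propionate. Butyrate 4 was low and propionate 3 high, and the rest overlapped. The fibroblast and matrix genes were spread evenly, with 7 above 0 and 8 below.

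Goblet cells, which make mucus, showed 11 of 13 genes above 0 with a median of 0.10, beside 45.0% of all genes. None had an unadjusted p under 0.05, beside 1.38% of all genes in this direction. Their mean level ran from 10.67 to 10.75 under butyrate and from 10.42 to 10.88 under propionate, with overlap. On HFD their median was -0.05, with 8 of 13 below 0. Zg16, a lectin of the mucus layer, stood at 12.60, 12.45, 12.65 and 12.46 under butyrate, against 12.41, 12.41, 12.45 and 12.43 under propionate. The groups met at 12.45 and were 0.11 ± 0.0577 apart. Muc2, the main mucin, differed by 0.07 ± 0.0428, with a 95% interval from -0.02 to 0.15. Of 19 genes of the unfolded protein response, 16 were below 0, beside 55.0% of all genes, with a median of -0.12. That count was 13 after centring of the arrays, and the median was -0.22 without butyrate 1 and -0.04 without butyrate 4.

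Very small shifts shared by the ribosomal protein and proteasome lists depended on the scale. Ribosomal protein genes had 51 of 67 members above 0 (median 0.03) and constitutive proteasome subunits 30 of 33 below (median -0.05). Of all genes, 45.0% lay above 0 and 55.0% below. Centring each array on its median, which moved all differences by 0.038, gave 61 of 67 and 21 of 33. The 55 small nucleolar and Cajal body RNAs, which guide modification of other RNAs, had 52 members above 0, beside 45.0% of all genes. Their median was 0.12, and 0 members had an unadjusted p under 0.05, beside 1.38% of all genes in this direction. Their mean level ran from 6.96 to 7.31 under butyrate and from 6.78 to 7.07 under propionate, with overlap. Their shift kept its direction on the other scales, with 53 above 0 after centring (median 0.16) and 54 after quantile normalisation (median 0.15). On HFD their median was -0.63. The LFD median was 0.06 without butyrate 3 and 0.05 without propionate 4.

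A panel held genes through which short-chain fatty acids are sensed, carried and burned, with deacetylase, hormone and other genes. Of its 18 measured members, 0 had an unadjusted p under 0.05, beside 3.62% of all genes. The 95% interval lay within 0.5 of 0 for 16 of them, beside 90.0% of all genes. A p above the limit does not show that the acids act alike, and the intervals give what was left undecided. The receptor Ffar2 differed by -0.18, with an interval from -0.49 to 0.14, and Ffar3 by 0.08, from -0.12 to 0.27. Slc16a1, a transporter that carries monocarboxylates together with protons, differed by 0.13 (interval -0.12 to 0.38). Slc5a8, which takes them up with sodium, differed by 0.04 (interval -0.12 to 0.21).

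Acads, the short-chain acyl-CoA dehydrogenase that oxidises butyryl-CoA, stood at 9.90, 10.55, 10.09 and 10.19 under butyrate, against 10.32, 10.27, 10.26 and 10.14 under propionate. The butyrate arrays enclosed the propionate arrays, and the interval was -0.28 to 0.16. On the propionate route, Pcca and Pccb, the subunits of propionyl-CoA carboxylase, differed by -0.09 and -0.02, and Mmut, methylmalonyl-CoA mutase, by -0.15 (interval -0.32 to 0.02). Among 15 genes of that route, 11 lay below 0 with a median of -0.04, beside 55.0% of all genes, and 8 after centring of the arrays. Its 1 member at an unadjusted p under 0.05, beside 2.24% of all genes in this direction, was Mmab, which makes the cobalamin cofactor of the mutase. Mmab stood at 6.92, 6.41, 6.44 and 6.78 under butyrate, against 6.95, 7.0, 6.94 and 7.30 under propionate, without overlap, a difference of -0.41 ± 0.1727 (unadjusted p 0.0247).

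Hdac1, Hdac2 and Hdac3, the class I histone deacetylases, differed by -0.01, -0.04 and -0.01, with Hdac3 bounded between -0.12 and 0.10. Cdkn1a is the cell cycle inhibitor p21 that deacetylase inhibitors induce in cultured cells. It was the 1 of 18 panel genes whose groups did not overlap, beside 2.83% of all genes. It stood at 11.04, 10.97, 10.95 and 11.08 under butyrate, against 10.78, 10.89, 10.79 and 10.90 under propionate. The difference was 0.17, with an interval from -0.08 to 0.43 (unadjusted p 0.174), because the shared spread of other groups is wider, as in saline mice with an SD of 0.364. On HFD its difference was 0.38 ± 0.1251. The hormone genes Gcg and Pyy differed by -0.04 and 0.03.

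The intervals that reached past 0.5 were those of Pdk4 and Angptl4, targets of the fatty acid receptors called PPARs. Pdk4, which turns pyruvate away from oxidation, stood at 6.40, 7.44, 7.30 and 7.55 under butyrate, against 8.15, 6.93, 8.28 and 7.82 under propionate. Butyrate 1 and propionate 2 were the low arrays of their groups, and the interval ran from -1.42 to 0.18. Angptl4, a secreted inhibitor of lipoprotein lipase, had an interval from -0.82 to 0.27. Vnn1, a pantetheinase, was the PPAR target with the smallest p, at -0.68 ± 0.3103 (unadjusted p 0.038 in limma). Of the 16 targets 10 lay below 0, beside 55.0% of all genes, and 9 after centring of the arrays.

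The same acids were compared on HFD with 4 arrays each, none of them shared with LFD. Of the 20 genes with the smallest p on LFD, 5 had the same sign on HFD, beside 42.9% of all genes tested. Mt2 stood at 11.37, 10.34, 11.79 and 11.76 under butyrate on HFD, against 11.05, 11.67, 11.62 and 12.30 under propionate, with overlapping groups and a difference of -0.34 ± 0.3404. Across genes the differences on LFD and HFD had a Pearson correlation of -0.21 and a Spearman correlation of -0.20, given as a description over 12795 genes that are not independent.

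**Figure D5:**
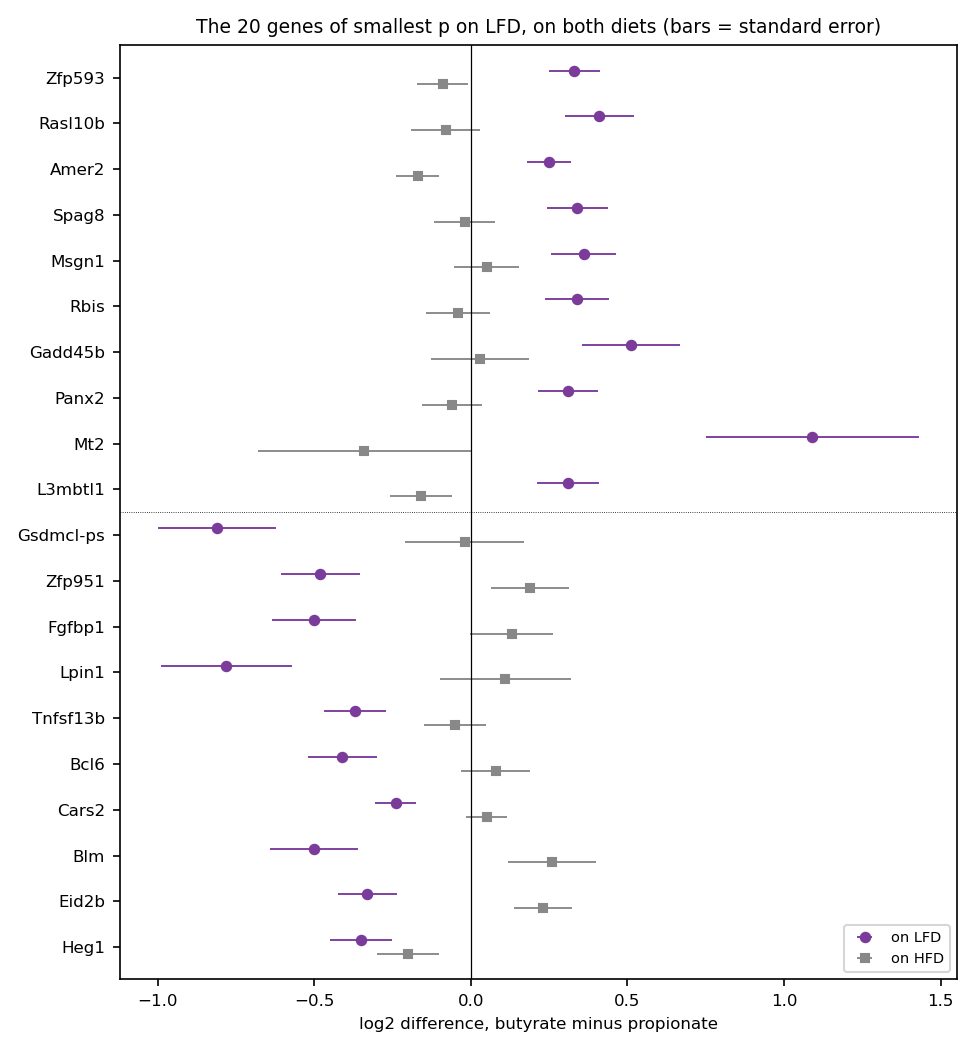
Log2 difference of butyrate minus propionate (x axis) on LFD (purple circles) and HFD (grey squares) with standard errors, for the 10 genes higher (above the dotted line) and 10 lower under butyrate on LFD with the smallest p. On HFD the differences lie between -0.34 and 0.26, and 5 of 20 keep the sign they had on LFD.

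The difference between the diets was tested directly, as the LFD difference minus the HFD difference. No gene passed an adjusted p of 0.05 (limma, smallest adjusted p 0.214), and 1764 genes, 13.8%, had an unadjusted p under 0.05, 493 above 0 (3.85%) and 1271 below (9.93%). With arrays weighted by their quality 83 genes passed (34 above 0 and 49 below), and with only the 4 groups in the fit 11 passed. Under the centring of arrays, the unadjusted split turned to 1038 above 0 and 557 below, so the balance of directions rests on the scale.

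The 5 genes with the smallest p on each side of that test were Snhg15, Stmn4, Amer2, Ing2 and Adcy6 above 0, and Eral1, Brca2, Got1, Immt and Eid2b below. Eral1, a chaperone of the small mitochondrial ribosomal subunit, stood at 7.35, 7.29, 7.43 and 7.51 under butyrate on LFD, against 7.51, 7.53, 7.74 and 7.68 under propionate on LFD. On HFD it stood at 7.47, 7.63, 7.6 and 7.66 under butyrate, against 7.17, 7.13, 7.10 and 7.28 under propionate. The butyrate arrays did not exceed the propionate arrays on LFD and lay wholly above them on HFD, a difference between diets of -0.64 ± 0.1389 (unadjusted p 8.1e-05, adjusted p 0.214 in limma).

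Got1, the cytosolic aspartate aminotransferase, differed by -0.29 ± 0.1608 on LFD and 0.70 ± 0.1608 on HFD, where butyrate arrays stood at 10.05, 10.28, 9.75 and 10.13, against 9.30, 9.52, 9.28 and 9.32 under propionate. The HFD groups were separate, while on LFD butyrate 1 overlapped propionate. Brca2 differed by -0.47 ± 0.1491 on LFD and 0.46 ± 0.1491 on HFD. Snhg15, a host gene of small nucleolar RNAs, stood at 6.67, 6.93, 6.86 and 6.88 under butyrate on LFD, against 6.66, 6.6, 6.61 and 6.57 under propionate. On HFD its butyrate arrays lay between 6.42 and 6.75 and its propionate arrays between 7.06 and 7.36. The difference between diets was 0.83 ± 0.1883 (adjusted p 0.214).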

How the data were processed

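The deposited table holds log2 values of 31 single-colour arrays, made by the authors with RMA, a method that corrects background, aligns the distributions of the arrays and summarises probes to probe sets, per the submitters' processing notes. The labels name no RMA version or genome build, each column is named for its sample, and array medians ran between 5.14 and 5.19. Arrays have no depth, and their number limits the precision.

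Probe sets with 1 gene symbol were kept, 1 per gene by highest mean, where at least 3 arrays reached an intensity of 20 (4.32 on the log2 scale). Differences come from limma 3.58.1 in R 4.3.3, fitted to 8 group means over all 31 arrays, with a trended eBayes step and Benjamini-Hochberg adjustment over 12795 genes. Standard errors use the spread shared by all groups, whereas SDs are of 1 group. The script was tested on simulated data.

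Named were the genes past the threshold, filled up to 10 a direction by smallest unadjusted p, a set panel, up to 4 members a list by p, and 5 genes a side for the diet difference; unnamed gene models and small RNAs were counted only. Mt1, Apoa1, Lss, Mvd, Hsd17b7, Srebf2, Fasn and the remaining clock genes were named after their values were seen. Some panel genes were not analysed here. The comparison, panel and lists were chosen with earlier results of these data known, and lists were described without a test. Alternatives covered the filter, the variance step, array weights, probe sets, normalisation, the arrays in the fit, the replicate block and each array left out.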

Additional observations from a re-analysis of the deposited data

Results flagged for a closer look

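Among 182 sets of 4 replicate arrays examined, 8 had 1 array far from the other 3, a gap that chance gives in about 1 of 20 such sets. Butyrate 2 was the array apart for Heg1, at 5.33 with the nearest array at 5.05, and for the receptor Ffar3, at 5.05 with the nearest at 4.76. Propionate 2 was apart in the mean of the lipid absorption genes, at 8.45 with the nearest at 6.94. Propionate 3 was lowest for surface colonocyte genes (11.43, nearest 11.57) and for immediate early genes (7.09, nearest 7.31), and highest for fibroblast and matrix genes (6.42, nearest 5.90). Propionate 1 was highest for tight junction genes at 9.31 (nearest 9.23), and propionate 4 lowest for small nucleolar and Cajal body RNAs at 6.78 (nearest 7.05).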

How the results depend on the processing

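Butyrate against propionate on LFD gave 0 genes under all 20 alternatives, with smallest adjusted p-values between 0.0956 (only the groups compared) and 1.0, and 0 to 0 genes with single arrays left out, where 326 to 737 genes had an unadjusted p under 0.05. The unadjusted split of 176 higher and 287 lower became 409 and 139 with arrays centred on their medians, and 258 and 202 after quantile normalisation once more. No filter gave 701 genes at an unadjusted p under 0.05 and the stricter filter 275, array weights 718. The diet difference gave 0 genes under 17 of 19 alternatives, 0 to 0 with single arrays left out, 83 with array weights and 11 with only the groups compared; the cause was not tested. Its unadjusted split of 493 above 0 and 1271 below became 1038 and 557 with centring and 871 and 714 after quantile normalisation. Same-numbered butyrate and propionate arrays deviated with correlations of -0.17, 0.15, 0.21 and 0.24, and arrays of unlike number with -0.43 to 0.39. So few arrays cannot settle whether the numbers pair them, and they were not taken as pairs. With the replicate block 0 genes were called, 491 at an unadjusted p under 0.05, and 0 for the diet difference. Of 38 genes, namely the 20 of smallest p on LFD and the 18 of the panel, 29 kept their sign. The signs of the other genes named above were not counted. The other 9 lay near 0 and changed sign. With centring, Pccb was at 0.01, Hdac1 at 0.03, Hdac3 at 0.03 (0.01 after quantile normalisation) and Gcg at 0.00. With single arrays left out, Ffar3 ran from 0.00 to 0.14, Slc5a8 from -0.01 to 0.09, Acads from -0.18 to 0.03, Pccb from -0.07 to 0.01, Hdac1 from -0.07 to 0.05, Hdac2 from -0.13 to 0.05, Hdac3 from -0.04 to 0.01, Gcg from -0.10 to 0.02 and Pyy from -0.06 to 0.13. Pyy was also at -0.06 once propionate 2 and 3 saline arrays rich in small-intestinal transcripts were left out together. Of 53 list medians, 6 moved by over 1 SD under some setting. With 4 arrays a group, the 95% interval of a gene reached a median of 0.213 to either side on the log2 scale.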
